A study of Mus musculus with 27 samples.

Results

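The 8 genes described here are Sox10, Foxd3, Tfap2a, Tfap2b, Erbb3, Ngfr, Cdh19 and S100b. They were taken by gene name from an FPKM table of 54532 mouse genes because they are used to recognise neural crest cells and the Schwann cell lineage. Their levels were followed in all 27 libraries of mouse embryonic fibroblast (MEF) cultures that were being converted to induced neurons (iNs). FPKM is the number of sequenced fragments on a gene per kilobase of its length, so levels of different genes can be compared. Each library was scaled by a size factor, the median over genes of its fragments relative to the geometric mean of all libraries. It was not scaled by its total of fragments. All 8 averaged more than 0.5 FPKM across the libraries, the level required for testing, as did 14932 genes of the table in all.

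The neural crest is a population of embryonic cells that leaves the dorsal neural tube and gives rise to Schwann cells, peripheral neurons, melanocytes and part of the facial skeleton. Schwann cell precursors travel along growing nerves, where they depend on neuregulin from axons, and they are scattered through the skin, limbs and body wall from which fibroblast cultures are made. SOX10 and FOXD3 are transcription factors of the crest and its glia, ERBB3 is the neuregulin receptor of these cells, NGFR is the low-affinity neurotrophin receptor p75 used to isolate them, and CDH19 is a cadherin of Schwann cell precursors. TFAP2A and TFAP2B act early in the crest but also in epidermis, limb and kidney, and S100B, a calcium-binding protein, is also made by cartilage and astrocytes.

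The cultures came from wild-type (WT), Per1-/- and Per2-/- embryos, where the mutant alleles were B6.129-Per1tm1Drw and B6.129-Per2tm1Drw. Heads and hearts were removed, embryos were pooled for each dish, and their sex was not determined. All cells, WT included, received lentiviruses for M2rtTA and for neuronal transcription factors, Brn2 (Pou3f2) and Myt1l among them, 3 days before day 0, and doxycycline and a neuronal medium (N3) from day 0 on. Each genotype had 3 libraries on day 0 (before reprogramming), day 2 and day 4, which makes 9 groups of 3. The RNA was from whole cultures, so fewer cells of a type and less RNA per cell cannot be told apart.

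Depth was 15815013 to 24264097 fragments per library. Per1 ranged from 4.76 to 6.33 FPKM in WT libraries and from 3.23 to 4.96 FPKM in Per1-/- libraries. On each day all 3 Per1-/- libraries lay below all 3 WT libraries. Per2 ranged from 0.817 to 1.97 FPKM in WT libraries and from 1.87 to 3.30 FPKM in the libraries labelled Per2-/-, which were higher than WT on each day, so directions for that group rest on the label. The table gives 1 value a gene and does not show which exons the alleles alter. Fibroblast genes were abundant, with a summed level of 10 markers of 1567 to 4985 FPKM. The day 0 libraries had FPKM sums of 333295 to 374624 and the later libraries had sums of 261289 to 343225. Rescaling every library to 1 common sum therefore moved the median log2 change of all tested genes by 0.37 from day 0 to day 2 and by 0.29 from day 0 to day 4.

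The genes were expressed at low to moderate levels. The mean over 27 libraries was 8.94 FPKM for Ngfr, 4.47 for Tfap2b, 3.25 for Sox10, 2.53 for Foxd3, 2.24 for Cdh19, 1.93 for S100b, 1.48 for Tfap2a and 1.44 for Erbb3. Ngfr stood at the 63.1st percentile of the tested genes and Erbb3 at the 19.6th. The smallest number of fragments behind any value was 14, for S100b in a WT and a Per1-/- library of day 0, and the largest was 2451, for Tfap2b. The widest ratio of the highest to the lowest library was 40.9, for Tfap2b, and the narrowest was 5.09, for Erbb3.

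Upstream sequences were looked at because 5 of the genes varied together over the libraries, as described further on. RefSeq (GRCm38.p6) promoter entries were matched by symbol for Tfap2a, Tfap2b, Foxd3, S100b and Ngfr, and not for Sox10, Erbb3 and Cdh19. The 250 bases before the RefSeq start are shown, 5′ to 3′ on the gene's strand, for Foxd3, which moved with Sox10, and for S100b, which did not. The Foxd3 window is chr4:99656049-99656298 and the S100b window is chr10:76253586-76253835, both on the plus strand.
Foxd3: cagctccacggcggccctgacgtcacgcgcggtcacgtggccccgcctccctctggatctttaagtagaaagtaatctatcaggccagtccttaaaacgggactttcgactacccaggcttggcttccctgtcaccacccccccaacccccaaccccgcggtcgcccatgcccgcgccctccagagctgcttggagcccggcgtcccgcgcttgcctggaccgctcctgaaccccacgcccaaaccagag
S100b: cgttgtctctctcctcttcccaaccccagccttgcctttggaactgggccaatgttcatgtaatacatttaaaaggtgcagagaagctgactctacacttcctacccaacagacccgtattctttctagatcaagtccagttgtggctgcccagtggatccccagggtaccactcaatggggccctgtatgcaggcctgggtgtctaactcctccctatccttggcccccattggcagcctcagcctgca
The Foxd3 window was 65.6% G and C and the S100b window 53.6%, beside a median of 52.4% for 32851 windows of that length. The windows were searched on both strands for ACAAAG (a SOX core), CAGCTG (an E-box) and GCCNNNGGC (a TFAP2 core), which occur in 16.5%, 13.0% and 13.7% of all windows. One match was found among the 5 genes, a CAGCTG of Ngfr at 25 to 20 bases before the RefSeq start. It is shown in capitals with its neighbours, chr11:95587706-95587735 on the minus strand, which the gene table places inside the transcribed span of Ngfr.
Ngfr: attgccttcaccCAGCTGctcccgcccgct
These are matches of letters only. No match in the other windows says no more than that these letters are not there. Other forms of the E-box, such as CACGTG, were not searched for, and those letters do occur in the Foxd3 window shown.

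**Figure D1:**
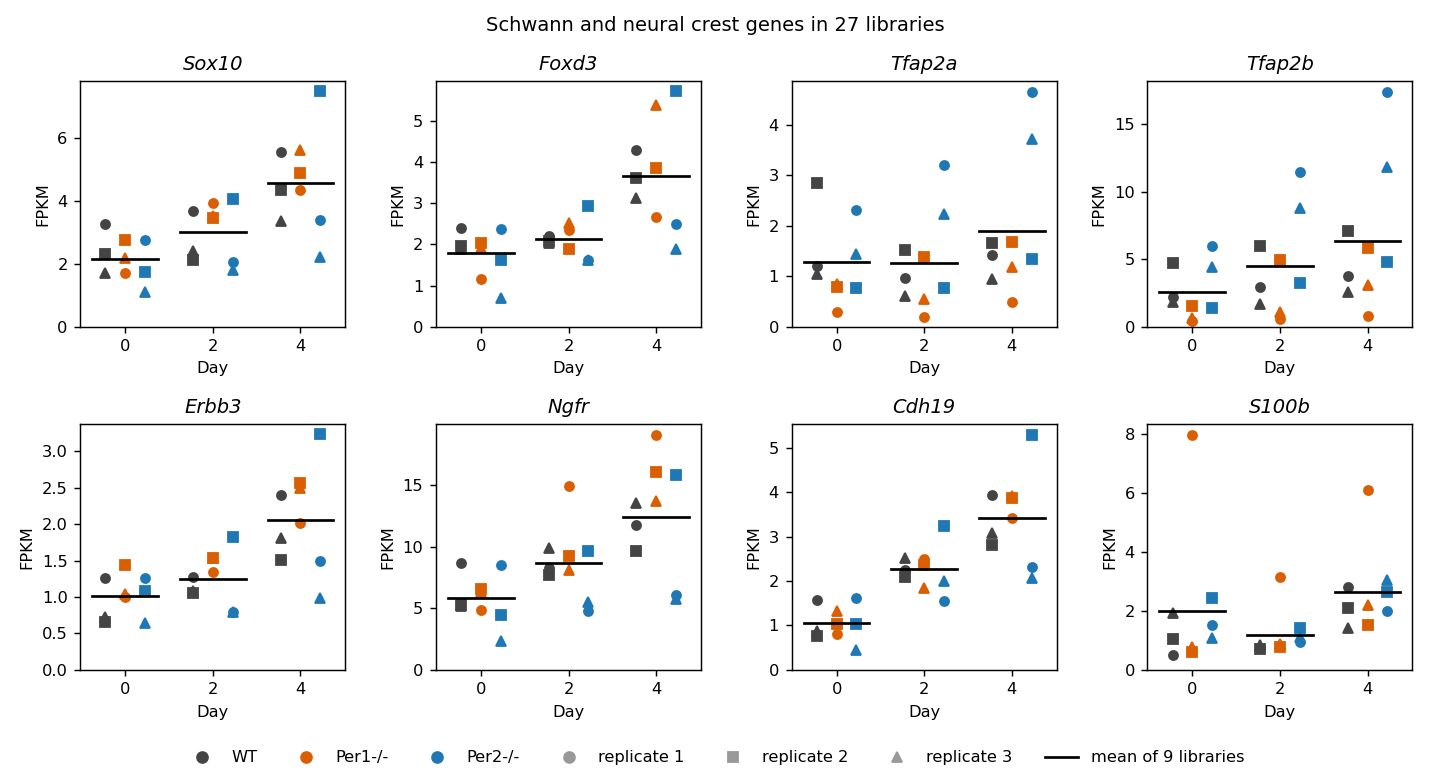
FPKM of each gene (y axis, from 0) on days 0, 2 and 4 (x axis) in 27 libraries. Colours mark genotypes, symbols mark replicate numbers and black lines are means of the 9 libraries of a day. For Cdh19, all 9 libraries of day 4 lay above all 9 of day 0, and the share of tested genes that did so was not computed. S100b was highest in Per1-/- replicate 1 on each day.

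The first question was whether these transcripts were lost or kept while the cultures were reprogrammed. Differences were tested with limma on log2(FPKM + 0.1) as the mean of the 3 genotypes, and a gene was called when its Benjamini-Hochberg adjusted p was 0.05 or less and its log2 fold change 0.58 or more in either direction. Each day had 9 libraries, and fold changes on this scale understate the change of low genes. On day 4, 6 of the 8 genes were called higher than on day 0 and 0 lower, where 24.4% of all tested genes were called higher. Their median log2 fold change was 1.02, and that of all tested genes was -0.01. Of all calls in this comparison 53.5% were higher, and this share was 74.1% after rescaling to a common sum, where 7 of the 8 genes were called higher beside 34.8% of tested genes.

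Sox10, the transcription factor that defines crest-derived glia, was present in each library of day 0. The gene is ENSMUSG00000033006 at chr15:79154908-79165240 on the minus strand (GRCm38, as are all gene positions here). WT libraries had 3.26, 2.31 and 1.70 FPKM, Per1-/- libraries had 1.69, 2.74 and 2.18, and libraries labelled Per2-/- had 2.75, 1.74 and 1.10. On day 4 the WT libraries had 5.56, 4.36 and 3.36 FPKM, the Per1-/- libraries had 4.36, 4.90 and 5.61, and the libraries labelled Per2-/- had 3.40, 7.50 and 2.22. On day 2 the values were 3.67, 2.12 and 2.40 FPKM in WT, 3.95, 3.47 and 3.53 in Per1-/- and 2.07, 4.05 and 1.81 FPKM in the libraries labelled Per2-/-. The values of days 0 and 4 did not overlap in WT or Per1-/- libraries and overlapped in the libraries labelled Per2-/-. How many of all tested genes were separated in this way was not computed, here or for the genes below. Over 9 libraries Sox10 averaged 2.16 ± 0.674 (SD) FPKM on day 0, 3.01 ± 0.893 on day 2 and 4.59 ± 1.55 on day 4. The log2 fold change from day 0 to day 4 was 1.04 (SE 0.22, limma, adjusted p = 0.000187).

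Foxd3, a forkhead factor of the premigratory crest that persists in its glia (ENSMUSG00000067261, chr4:99656299-99658622, plus strand), had a similar course. It averaged 1.78 ± 0.552 FPKM on day 0, 2.14 ± 0.424 on day 2 and 3.67 ± 1.30 on day 4 (SD, n = 9). The lowest and highest libraries were 0.700 and 2.40 FPKM on day 0 and 1.88 and 5.73 FPKM on day 4. On day 4 the WT libraries had 4.31, 3.62 and 3.13 FPKM, the Per1-/- libraries had 2.68, 3.85 and 5.38, and the libraries labelled Per2-/- had 2.49, 5.73 and 1.88. The larger step lay between days 2 and 4, where the log2 fold change was 0.69 (SE 0.22, limma, adjusted p = 0.0190), whereas that from day 0 to day 2 was 0.30 (SE 0.22, adjusted p = 0.208). From day 0 to day 4 it was 1.00 (SE 0.22, adjusted p = 0.000268).

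Erbb3, the receptor through which neuregulin sustains Schwann cell precursors, had the lowest mean of the 8 genes. It is ENSMUSG00000018166 at chr10:128567523-128589652 on the minus strand. Its lowest, median and highest values were 0.637, 1.04 and 1.45 FPKM on day 0 and 0.984, 2.01 and 3.24 FPKM on day 4. The log2 fold change was 0.93 (SE 0.20, limma, adjusted p = 0.000248) from day 0 to day 4, of which 0.65 (adjusted p = 0.0172) fell between days 2 and 4. Its partner Erbb2 was not called (0.16, adjusted p = 0.0809), and Erbb4 and the neuregulins Nrg2, Nrg3 and Nrg4 were below the filter. The neuregulin Nrg1 passed the filter, and its values are not given here. Of 7 tested genes of neuregulin and ERBB signalling, Nrg1 among them, 1 was called higher and 2 lower, beside 24.4% and 21.2% of all tested genes. Bace1, a protease that cleaves neuregulin, had a log2 fold change of 0.93, and the ERBB inhibitors Errfi1 and Lrig1 had -2.91 and -1.11.

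Ngfr, the p75 neurotrophin receptor, was the most abundant of the 8. It is ENSMUSG00000000120 at chr11:95568818-95587735 on the minus strand. On day 0 the WT libraries had 8.66, 5.27 and 5.18 FPKM, the Per1-/- libraries had 4.86, 6.51 and 6.35, and the libraries labelled Per2-/- had 8.50, 4.48 and 2.33. On day 4 the WT libraries had 11.8, 9.66 and 13.5 FPKM, the Per1-/- libraries had 19.1, 16.0 and 13.7, and the libraries labelled Per2-/- had 6.04, 15.8 and 5.77. WT and Per1-/- libraries were separated between the days and the libraries labelled Per2-/- were not. The log2 fold change was 0.59 (SE 0.23, limma, adjusted p = 0.0235) from day 0 to day 2 and 1.06 (SE 0.23, adjusted p = 0.000221) from day 0 to day 4. The call for day 2 lay close to the fold threshold. It was lost in 7 of 18 fits that left out 1 library and when either Per1-/- replicate 1 or Per2-/- replicate 2 was left out on all days, with log2 fold changes of 0.46 and 0.49.

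Transcripts of several NGFR ligands fell. Of 14 tested genes of neurotrophin and NGFR signalling, 4 were called higher and 6 lower from day 0 to day 4. Of all tested genes 24.4% were called higher and 21.2% lower in that comparison. Bdnf averaged 15.3 FPKM on day 0 and 2.17 FPKM on day 4, and Bdnf, Ntf3 and Ntf5 were called lower with log2 fold changes of -2.74, -1.89 and -0.70. Ntrk2, the receptor of BDNF, had a log2 fold change of 2.51 and averaged 0.103 FPKM on day 0 and 1.08 FPKM on day 4, and Ntrk3 was below the filter.

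Cdh19, the cadherin of Schwann cell precursors, had the largest change of the 8 genes from day 0 to day 4. It is ENSMUSG00000047216 at chr1:110888326-110977584 on the minus strand. On day 0 the WT libraries had 1.57, 0.768 and 0.885 FPKM, the Per1-/- libraries had 0.797, 1.03 and 1.33, and the libraries labelled Per2-/- had 1.62, 1.03 and 0.448. On day 4 the WT libraries had 3.94, 2.80 and 3.09 FPKM, the Per1-/- libraries had 3.42, 3.88 and 3.91, and the libraries labelled Per2-/- had 2.31, 5.29 and 2.08. On day 2 the values were 2.25, 2.10 and 2.51 FPKM in WT, 2.51, 2.35 and 1.83 in Per1-/- and 1.56, 3.25 and 2.00 FPKM in the libraries labelled Per2-/-. Days 0 and 4 did not overlap in any genotype. Cdh19 was higher on day 4 than on day 0 in 9 of 9 pairs that share a genotype and a replicate number. That weaker condition was met by 28.5% of all tested genes. The log2 fold change was 1.09 (SE 0.21, limma, adjusted p = 8.33e-05) from day 0 to day 2 and 1.64 (SE 0.21, adjusted p = 3.88e-07) from day 0 to day 4. Cdh19 alone was called from day 0 to day 2 within each genotype, by 1.08 in WT, 1.03 in Per1-/- and 1.15 in Per2-/- libraries. The call in Per1-/- was lost without Per1-/- replicate 1 on all days (0.78, adjusted p = 0.170) and that in Per2-/- without Per2-/- replicate 2 (0.94, adjusted p = 0.0515).

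S100b, the calcium-binding protein, had another course. It is ENSMUSG00000033208 at chr10:76253853-76261159 on the plus strand. Its median over 9 libraries was 1.10 FPKM on day 0, 0.881 FPKM on day 2 and 2.19 FPKM on day 4. It was called from day 2 to day 4 (log2 fold change 1.14, SE 0.40, limma, adjusted p = 0.0355), and the change from day 0 to day 4 was 0.76 (SE 0.40, adjusted p = 0.0865). One set of libraries stood apart, Per1-/- replicate 1, with 7.98, 3.15 and 6.12 FPKM on days 0, 2 and 4. The other Per1-/- libraries had 0.612 and 0.776 FPKM on day 0 and 1.53 and 2.19 FPKM on day 4. Without Per1-/- replicate 1 on all days, the change from day 0 to day 4 was 0.95 with an adjusted p of 0.000745. The WT libraries had 0.496, 1.04 and 1.91 FPKM on day 0 and 2.81, 2.09 and 1.41 FPKM on day 4, and the libraries labelled Per2-/- had 1.53, 2.43 and 1.10 FPKM and then 2.00, 2.64 and 3.04 FPKM. The call from day 2 to day 4 was not stable. It was lost in 11 of 18 fits that left out 1 library, with log2 fold changes of 0.95 or more and adjusted p up to 0.0823 in limma, and when Per2-/- replicate 2 was left out on all days (1.18, adjusted p = 0.0632) or low genes were not filtered (adjusted p = 0.0696).

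Other cells that make S100b were followed by their own markers. The summed level of 8 cartilage genes was 9.06 to 152.5 FPKM on day 0 and was highest in Per2-/- replicate 3, where S100b was 1.10 FPKM. In Per1-/- replicate 1 that sum was 20.5 FPKM on day 0, with 2 of the 9 libraries above it. Astrocyte markers summed to 41.7 FPKM in the same library, within the range of 36.9 to 80.7 FPKM of that day. Their part in the S100b values was not tested. S100b, Sox10 and Erbb3 also occur in the oligodendrocyte lineage. Among 10 markers of that lineage, Olig2, Nkx2-2, Mag, Bcas1 and Enpp6 were below 0.1 FPKM in every library. Of the 3 that were tested, 2 were called higher and 1 lower from day 0 to day 4, with a median log2 fold change of 2.03. The part of that lineage in the values of S100b, Sox10 and Erbb3 was not tested.

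The AP-2 factors had the widest spread. Tfap2b is ENSMUSG00000025927 at chr1:19208914-19238576 on the plus strand, and Tfap2a is ENSMUSG00000021359 at chr13:40715302-40738376 on the minus strand. Tfap2b rose from day 0 to day 4 with a log2 fold change of 1.23 (SE 0.46, limma, adjusted p = 0.0190), while Tfap2a changed by 0.49 (SE 0.36, adjusted p = 0.226). On day 0 Tfap2b had 2.22, 4.74 and 1.83 FPKM in WT, 0.424, 1.56 and 0.630 in Per1-/- and 5.99, 1.41 and 4.41 FPKM in the libraries labelled Per2-/-. On day 4 it had 3.72, 7.06 and 2.54 FPKM in WT, 0.767, 5.81 and 3.07 in Per1-/- and 17.4, 4.78 and 11.8 FPKM in the libraries labelled Per2-/-. Days 0 and 4 overlapped in each genotype. Tfap2a had 1.21, 2.85 and 1.05 FPKM in WT on day 0, 0.295, 0.781 and 0.843 in Per1-/- and 2.32, 0.768 and 1.43 FPKM in the libraries labelled Per2-/-. On day 4 it had 1.42, 1.66 and 0.936 FPKM in WT, 0.486, 1.67 and 1.19 in Per1-/- and 4.65, 1.33 and 3.73 FPKM in the libraries labelled Per2-/-. The library with the highest Tfap2a in a group was also the one with the highest Tfap2b, except in Per1-/- on day 0.

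**Figure D2:**
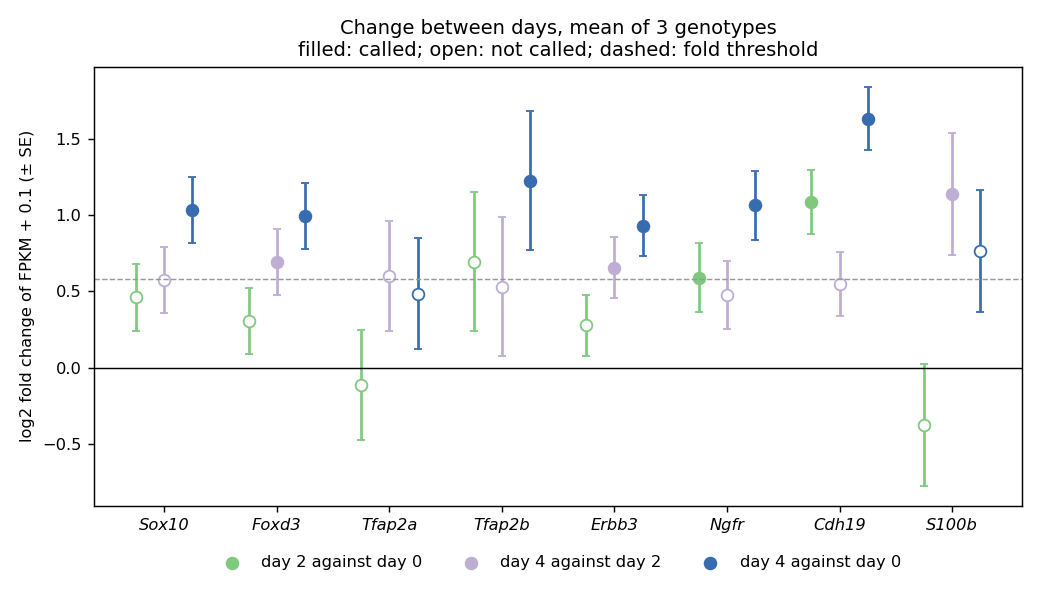
Log2 fold change of FPKM + 0.1 (y axis) of the 8 genes (x axis) between days, as the mean of 3 genotypes. Bars are ± 1 SE from limma, filled symbols were called and open ones were not. Cdh19 had the largest change from day 0 to day 4, 1.64, and the open symbols of Tfap2a and S100b lay at 0.49 and 0.76.

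The steps at which genes were called differed, in comparisons that share the libraries of a day. From day 0 to day 2, 2 of 8 genes were called higher, Cdh19 and Ngfr, beside 22.2% of all tested genes, so the share of 8 was close to the background. Of all calls there 52.7% were higher, and 80.5% after rescaling to a common sum, where 6 of the 8 genes were called higher beside 37.6% of tested genes. Between days 2 and 4, Erbb3, Foxd3 and S100b were called higher, 3 of 8 beside 6.54% of all tested genes. In that interval 65.6% of all calls were higher, and 55.4% after rescaling, which left 3 genes called beside 5.49% of tested genes. The count of 3 became 0 when Per2-/- replicate 2 of day 4 was left out and 5 when its day 2 library was. Sox10 missed the call there with a log2 fold change of 0.576, just under the threshold (limma, adjusted p = 0.0498). In each of the 8 genes the library of day 4 was higher than the library of day 2 in 9 of 9 pairs that share a genotype and a replicate number, as it was in 12.6% of all tested genes.

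Within single genotypes fewer changes passed the test. On day 4 against day 0, Erbb3 and Cdh19 were called higher in WT, 2 of 8 beside 22.9% of tested genes. In Per1-/- libraries 5 were called, Sox10, Erbb3, Ngfr, Foxd3 and Cdh19, beside 22.6%. Without Per1-/- replicate 1 on all days Sox10 and Erbb3 were no longer called there (limma, adjusted p = 0.0659 and 0.0672). With 1 library left out, Erbb3 lost its call in 4 of 6 fits, Foxd3 in 2, and Sox10, Ngfr and Cdh19 in 0. In libraries labelled Per2-/- 3 were called, Sox10, Foxd3 and Cdh19, beside 21.6%. On day 2 against day 0 Cdh19 was the 1 gene called in each genotype, beside 20.8% of tested genes in WT, 20.8% in Per1-/- and 18.7% in Per2-/- libraries. From day 2 to day 4 the count was 0 with limma, beside 1.62% in WT, 1.38% in Per1-/- and 2.32% in Per2-/- libraries. Without a replicate block, the number of these genes at an unadjusted p under 0.05 was also 0 in each of those 3 comparisons. With a block on genotype and replicate number it was 4 in WT, 6 in Per1-/- and 5 in Per2-/- libraries, with 0 genes called. A higher count in 1 genotype is not a difference between genotypes, and the change from day 0 to day 4 differed from WT for 0 of the 8 genes in Per1-/- and in Per2-/- libraries, beside 0% of tested genes in both (limma without a replicate block, with 0 of the 8 at an unadjusted p under 0.05).

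Per2-/- replicate 2 carried part of these values. It had the highest Sox10, Erbb3, Foxd3 and Cdh19 of the 9 libraries on days 2 and 4, with Sox10 at 4.05 and 7.50 FPKM. The summed level of Pou3f2 and Myt1l, in which vector and endogenous transcripts are not told apart, was also highest there on both days, and both genes were called higher on day 4 than on day 0. That sum was 770.9 FPKM on day 2 beside a median of 309.3 over 9 libraries, and 430.2 FPKM on day 4 beside a median of 155.3. Macrophage markers were lowest there, at 75.9 and 212.3 FPKM. Neuron markers summed to 124.4 FPKM there on day 2, with 2 of the 9 libraries above it, and to 194.8 FPKM on day 4, the highest value beside a median of 136.3. The part of these levels in the result was not tested. Without this replicate on all days, Sox10 and Foxd3 were no longer called from day 0 to day 4 in the libraries labelled Per2-/-, with log2 fold changes of 0.62 and 0.69, and 6 of the 8 genes were still called as the mean of the genotypes.

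The genotypes were compared next, on each day. No member was called in any of the 9 comparisons with limma. The share of all tested genes called was also small. It was 0.0134% on day 0, 0.0067% on day 2 and 0.0268% on day 4 for Per1-/- against WT, and 0.0067%, 0.0268% and 0.0067% for Per2-/- against WT. For Per1-/- against Per2-/- it was 0.0201%, 0.0737% and 0.556% on the 3 days. At an unadjusted p under 0.05 there was 1 member for Per1-/- against WT, on day 0, and 0 for Per2-/- against WT. For Per1-/- against Per2-/- there were 1, 2 and 3 members on days 0, 2 and 4, and voom weights on the fragments gave 0 calls as well.

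The intervals of these differences were wide. For Sox10 on day 4 the log2 difference of Per1-/- from WT was 0.18 with a 95% interval of -0.60 to 0.96, and that of Per2-/- from WT was -0.17 with an interval of -0.95 to 0.61. For S100b the interval of Per1-/- against WT on day 4 was -1.02 to 1.86. A p above the threshold does not show that the genotypes were alike, and with 3 libraries a group differences within these intervals were not excluded.

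The lowest unadjusted p-values were those of Tfap2b between the mutants. Tfap2b was lower in Per1-/- than in Per2-/- libraries by log2 differences of -2.01 on day 0, -2.15 on day 2 and -1.99 on day 4 (limma, adjusted p = 0.766, 0.403 and 0.262). Tfap2a differed by -1.10, -1.53 and -1.43 (adjusted p = 0.864, 0.487 and 0.320). Ngfr differed in the opposite direction on day 4, by 0.96 (adjusted p = 0.275). The Tfap2b values of these groups overlapped on each day, since Per2-/- replicate 2 lay at 1.41, 3.24 and 4.78 FPKM and Per1-/- replicate 2 at 1.56, 4.91 and 5.81 FPKM.

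The 8 genes fell into 2 sets and a single gene by how they varied over the libraries. Correlations below are Pearson's r of log2(FPKM + 0.1) over 27 libraries, which share days, depth scaling and, for genes of 1 library, the same RNA. Sox10, Foxd3, Erbb3, Cdh19 and Ngfr had r of 0.83 to 0.93 with each other. After the mean of each of the 9 groups was taken off, so that day and genotype no longer counted, r among these 5 genes was 0.74 to 0.92. Tfap2a and Tfap2b had r of 0.93 with each other and 0.94 after the group means were taken off.

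Between the sets r was -0.30 to 0.19 over all libraries and -0.44 to -0.13 within groups. Ngfr and Tfap2a, the pair with the most negative r on days 2 and 4, had r of 0.12 on day 0, -0.91 on day 2 and -0.90 on day 4. Each of these was over 9 libraries, with genotype differences left in, and within groups this pair had r of -0.44. The least negative r between the sets was -0.39 on day 2 (Cdh19 and Tfap2b) and -0.26 on day 4 (Foxd3 and Tfap2b). S100b had r of 0.15 to 0.26 with the genes of the Sox10 set and of -0.25 and -0.22 with Tfap2a and Tfap2b. Within groups these were -0.20 to 0.05 with the Sox10 set, and -0.58 and -0.57 with Tfap2a and Tfap2b. The 8 genes thus did not order the libraries in 1 common way.

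**Figure D3:**
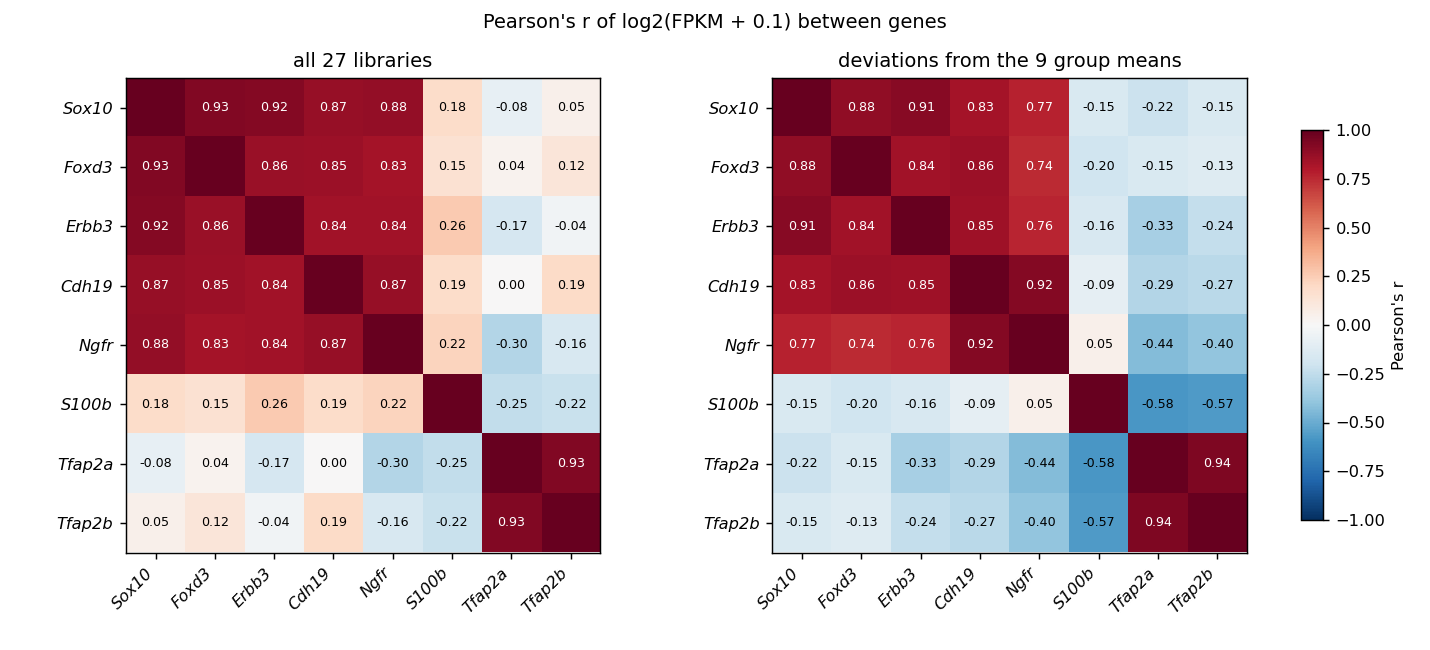
Pearson's r of log2(FPKM + 0.1) between the 8 genes over 27 libraries (left) and of the deviations from the 9 group means (right). The colour scale runs from -1 (blue) to 1 (red). Sox10, Foxd3, Erbb3, Cdh19 and Ngfr form 1 block of 0.74 or more in both panels, Tfap2a and Tfap2b form another, and S100b joins neither.

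The genes whose pattern was most like each member were read from all 14932 tested genes, up to 3 for each member by the highest r over 27 libraries. For Sox10 they included Foxd3 (0.93) and Erbb3 (0.92). For Foxd3 they included Sox10 and Slc22a23 (0.87), and for Erbb3 they were Sox10, Foxd3 and Slc22a23 (0.86). For Ngfr they were Sox10 (0.88), Ntm (0.88) and Cdh19 (0.87). Cdh19 was nearest to Cadm4 (0.96), an adhesion molecule of Schwann cells at the axon, and then to Ntm (0.94) and Slc35f1 (0.92). Sox10, Foxd3, Erbb3 and Ngfr thus had another gene of this set among their 3 nearest, and Cdh19 did not.

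Cadm4 shows how close such a pattern was. It averaged 6.01 ± 1.35 FPKM on day 0, 16.6 ± 3.22 on day 2 and 24.1 ± 5.44 on day 4 (SD, n = 9). Like Cdh19, it was highest in Per2-/- replicate 2 on days 2 and 4, at 22.9 and 31.0 FPKM.

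The nearest genes of the AP-2 factors were of another kind. Tfap2a was nearest to Tfap2b (0.93), Lhx2 (0.92) and Hoxd13 (0.86), and Tfap2b to Msx1 (0.94), Lhx2 (0.94) and Tfap2a. LHX2 and MSX1 are homeodomain factors of the growing limb bud, among other tissues, and HOXD13 patterns the digits. Msx1 had 1.21 FPKM in Per1-/- replicate 1 and 42.4 FPKM in Per2-/- replicate 1 on day 4, where Tfap2b had 0.767 and 17.4 FPKM. Hoxd13 had 5.28 and 87.9 FPKM in those libraries. No gene of the Sox10 set was among the 3 nearest of either AP-2 factor.

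Epithelial cells, which also make AP-2 factors, were followed by 10 markers. Their summed level was 10.1 to 46.1 FPKM on day 0 and 1.75 to 6.50 FPKM on day 4. Of the 4 tested markers 0 were called higher and 2 lower, beside 24.4% and 21.2% of all tested genes. Grhl2 and Esrp1 were below 0.1 FPKM in every library. The called markers were Krt18 and Cldn4, with log2 fold changes of -3.94 and -4.68, while Tfap2b rose. Their part in the Tfap2 values was not tested.

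S100b was nearest to Tgfbr3 (0.87), Srpx2 (0.84) and Il18 (0.82), none of them a gene of the lists used here. Tgfbr3, a co-receptor for transforming growth factor beta, had 40.6 FPKM in Per1-/- replicate 1 on day 0 beside a median of 14.8 over 9 libraries.

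How much of the variation lay with the day and how much with the replicate number was computed for each gene. For Cdh19, 74.9% of the variance of log2 values lay between days and 11.8% between replicate numbers within a genotype. For Sox10, Foxd3 and Erbb3 the day took 48.1% to 49.1% and the replicate number 28.1% to 31.6%. For Tfap2b the day took 14.7%, the genotype 41.1% and the replicate number 39.6%, with 2.27% left. For S100b the replicate number took 49.5% and the day 26.8%. The median over all tested genes was 64.6% for the day and 9.77% for the replicate number within genotype, and each of the 8 genes lay above that second median.

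**Figure D4:**
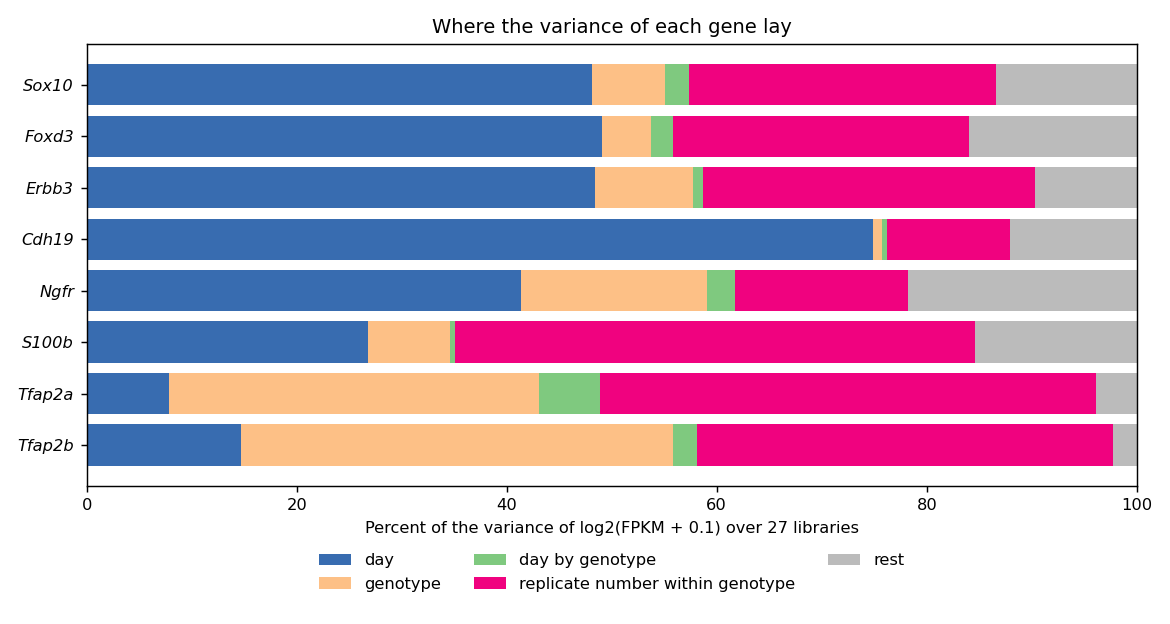
Share of the variance of log2(FPKM + 0.1) over 27 libraries (x axis, percent) of each gene that lay between days, genotypes, day by genotype, replicate numbers within a genotype, and the rest. Cdh19 was led by the day (74.9%), S100b by the replicate number (49.5%).

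For Tfap2b the order of the 3 replicate numbers was the same on days 0, 2 and 4 in each of the 3 genotypes. Among all tested genes 0.121%, or 18 genes, kept the order in 3 genotypes, and 80.7% kept it in none. Tfap2a kept it in WT and Per2-/- libraries, while Sox10, Ngfr and Cdh19 kept it in none. The labels give biological replicate numbers but do not state that 1 culture was followed over the days, so this is a property of the numbers as deposited.

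**Figure D5:**
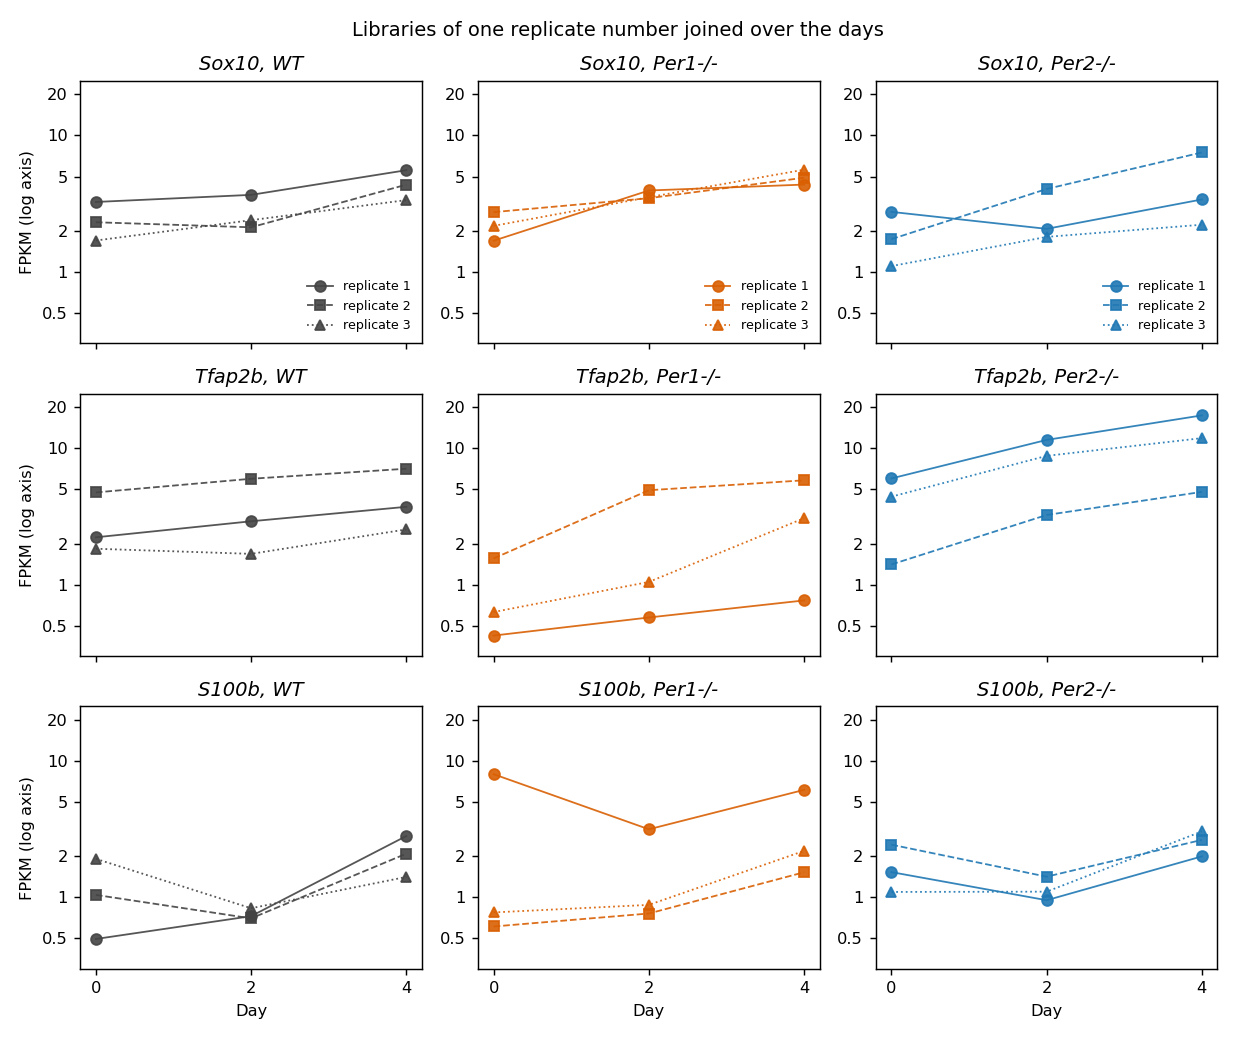
FPKM (y axis, log scale) of Sox10, Tfap2b and S100b by day (x axis), 1 panel for each genotype, with libraries of 1 replicate number joined by a line. The lines of Tfap2b do not cross in any genotype, those of Sox10 cross in each, and S100b is highest in Per1-/- replicate 1 throughout.

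The wider programmes around the 8 genes were read from lists of other genes, for day 4 against day 0. Of 30 Schwann cell precursor and Schwann cell genes, 20 were tested, 10 were called higher and 5 lower, where 24.4% of all tested genes were called higher and 21.2% lower. Their median log2 fold change was 0.77, and that of all tested genes was -0.01. The largest called changes were those of Pou3f1 (3.19), a POU factor of promyelinating Schwann cells that is related to the introduced Brn2, Sostdc1 (2.82), Fabp7 (2.23) and Cadm4 (1.99). Fabp7, a lipid carrier of immature glia, averaged 2.63 FPKM on day 0 and 13.0 FPKM on day 4. Cnp, an enzyme of myelinating glia, was called higher with 0.74, and Egr2, the factor that starts myelination, was called lower with -1.31.

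Of 22 other crest specifiers and early crest factors, 16 were tested, 3 were called higher and 2 lower, with a median of 0.07. Sox8, a relative of Sox10, averaged 0.180 FPKM on day 0 and 3.13 FPKM on day 4 (log2 fold change 3.63). Msx1 and Twist1 were called higher with 2.15 and 0.62, and Msx2 and Ets1 lower with -1.84 and -1.71. Snai2 and Sox9 were not called, and Pax3, Pax7 and Tfap2c were below the filter. The median of this list lay near that of all tested genes.

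Genes of other crest derivatives were mostly low. Of 10 melanocyte genes 3 were tested and 2 called higher, Mitf (0.99) and Pmel (0.78), while Dct, Tyr and Tyrp1, enzymes of pigment synthesis, were below the filter. Of 15 genes of autonomic and sensory derivatives 5 were tested, and 3 were called higher and 1 lower. Prph, a filament of peripheral neurons, had a log2 fold change of 6.04, Elavl4 of 2.11 and Gata3 of -1.58. Neurog1 was listed at 0 in each library, and Th averaged 0.143 FPKM on day 4.

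Markers of other cells moved over the same days, and their part in the results above was not tested. All 10 macrophage markers were called higher from day 0 to day 4, and their summed level was 36.8 to 402.2 FPKM on day 0 and 212.3 to 861.4 FPKM on day 4. Of 7 tested neuron markers 6 were called higher, and the sum of 8 was 26.9 to 49.1 FPKM on day 0 and 103.1 to 194.8 FPKM on day 4. Of 10 fibroblast markers 6 were called higher and 2 lower. Of 4 tested pericyte markers 2 were called higher and 2 lower, and of 2 tested endothelial markers 1 was called in each direction, with Tie1 and Cldn5 below 0.1 FPKM in every library. Of 6 tested astrocyte markers 4 were called higher and 1 lower, of 3 tested oligodendrocyte markers 2 higher and 1 lower, and of 5 tested cartilage markers 0 higher and 1 lower. Aqp4 and Slc1a3, known from glia, were called higher with 3.40 and 1.95.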

How the data were processed

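Bulk RNA-seq data of 27 libraries from MEF cultures were analysed. According to the methods of the study, low-quality reads, adaptors and poly-N reads were removed, the rest of the paired-end reads from nondirectional libraries were aligned to GRCm38 with HISAT2 (version 2.0.5), fragments on genes of Ensembl were counted with featureCounts (version 1.5.0-p3), and the authors computed FPKM, which they deposited, from counts and gene lengths. Without strand, reads of overlapping antisense genes cannot be told apart. Solved with the deposited gene lengths, 100% of values gave whole fragments within 0.01, and the scaling equalled median-of-ratios size factors.

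Values were converted to log2(FPKM + 0.1). Genes averaging 0.5 FPKM or more (14932) were tested with limma (version 3.58.1, R 4.3.3; trended eBayes) over 9 groups of genotype and day from the labels, without a replicate block. The Benjamini-Hochberg adjustment ran over all tested genes, and the fit was tested on simulated data. The 8 genes, the gene lists and the motifs were chosen with earlier results of these data known. Named genes were the 8, up to 4 called list genes with the largest change, defining markers, and the 3 nearest genes by r. Other list genes, such as Cnp, Egr2, Erbb2 and Ntf5, were named after their values were seen, and some genes of the rule are not reported here. Alternatives were other pseudocounts, filters, scalings, weights, blocks and left-out libraries. Replicates are numbered as biological in the labels. Depth limits low values, with as few as 14 fragments.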

Additional observations from a re-analysis of the deposited data

Results flagged for a closer look

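Tfap2a, an AP-2 factor, went in opposite directions from day 0 to day 2 in 2 genotypes. Its mean log2 change was -0.63 in WT, where the library of day 2 was lower in each of the 3 pairs that share a replicate number, and 0.36 in the libraries labelled Per2-/-, where it was higher in each of the 3 pairs. Neither change was called with limma without a replicate block. With the block, the change in WT was called lower (limma, adjusted p = 0.0244) and that in the libraries labelled Per2-/- was not called. The difference between them was not tested.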

How the results depend on the processing

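The count of 6 genes called from day 0 to day 4 was 6 or 7 under all alternatives. Other counts moved. From day 0 to day 2 (2 genes called), pseudocount 1 gave 1, rescaling to a common sum gave 6, and leaving out Per1-/- replicate 1 or Per2-/- replicate 2 on all days, chosen after seeing the data, gave 1 each. From day 2 to day 4 (3 called), pseudocount 1 gave 1. Leaving out 1 library gave 1 to 2 genes from day 0 to day 2 and 0 to 5 genes from day 2 to day 4. The latter range came from Per2-/- replicate 2, with 0 genes without its day 4 library and 5 without its day 2 library. Within genotypes, Cdh19 was the 1 gene from day 0 to day 2. There, the fit of only the libraries compared gave 3 in Per1-/- and 0 in Per2-/-, and rescaling gave 3 in Per1-/-. Without Per1-/- replicate 1 the count was 0 in Per1-/-, and without Per2-/- replicate 2 it was 3 in Per1-/- and 0 in Per2-/-. With 1 library left out it was 0 to 1 in WT, 0 to 1 in Per1-/- and 0 to 2 in Per2-/-. For WT from day 2 to day 4 (0 called), the fit of only the libraries compared gave 2 and leaving out Per1-/- replicate 1 gave 1. From day 0 to day 4 within WT, where 2 were called, 1 to 4 were called with 1 library left out and 5 after rescaling, and in Per2-/-, where 3 were called, 1 to 5 and 6. The causes were not tested.

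Libraries of 1 genotype and number on different days had r of -0.02 to 0.29 (median 0.13) in their deviations from group means. Libraries of 1 genotype with different numbers had r of -0.21 to 0.09 (median -0.06), and 26 of 27 libraries were closest to their own number. The numbers thus carried some pairing, but not in every pair, and the main fit did not use it. The SE of the change from day 0 to day 4 was 0.46 without the replicate block and 0.13 with it for Tfap2b, 0.40 and 0.23 for S100b, and 0.21 and 0.18 for Cdh19. With the replicate block, 3 genes were called from day 0 to day 2, 7 from day 0 to day 4 and 4 from day 2 to day 4. The shares of all tested genes given above belong to the fit without the block. The counts with the block therefore have no share beside them and cannot be read as particular to these genes. Within genotypes the block gave 2 in WT, 3 in Per1-/- and 2 in Per2-/- from day 0 to day 2. The 2 in WT were Cdh19, higher, and Tfap2a, lower (-0.63). From day 0 to day 4 it gave 5, 7 and 7 in place of 2, 5 and 3, all higher, and from day 2 to day 4 it gave 0 in each genotype. In that last step 4 genes in WT, 6 in Per1-/- and 5 in Per2-/- libraries had an unadjusted p under 0.05 with the block. The change from day 0 to day 4 differed from WT for 0 genes with the block, but 2 genes, Tfap2a and Tfap2b, had an unadjusted p under 0.05 in each mutant (adjusted p of 0.864 to 0.947). With a block on the replicate number alone, 0 genes were called in the 9 comparisons of genotypes on a day.

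The log2 change of Tfap2a from day 0 to day 2, -0.12, turned to 0.23 after rescaling and ranged from -0.31 to 0.0769 with 1 library left out, above 0 when WT replicate 2 or Per2-/- replicate 1 of day 0, or Per1-/- replicate 1 or Per2-/- replicate 2 of day 2, was left out. Genotype comparisons had 0 calls under every alternative run. Depth limits Tfap2a, S100b and Foxd3 most, with 14 to 28 fragments at the lowest. P-values of the main fit measure the spread of libraries within groups, with 1 estimate for each gene shared by the 9 groups of 3.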
